A study of Rattus norvegicus with 24 samples.

Results

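The levels of 10 genes that fat cells use to store lipid, to release it and to secrete hormones were followed in the urethra of rats after simulated vaginal delivery (SVD). They were listed by gene symbol, with earlier results of these data known, and are 10 of the 32883 genes in the table. Adipoq (ENSRNOG00000001821), Lep (ENSRNOG00000045797), Retn (ENSRNOG00000001001) and Cfd (ENSRNOG00000033564) encode secreted proteins. Plin1 (ENSRNOG00000015086) and Cidec (ENSRNOG00000009153) encode proteins of the lipid droplet surface. Fabp4 (ENSRNOG00000010805), Lipe (ENSRNOG00000020546), Aqp7 (ENSRNOG00000009686) and Pck1 (ENSRNOG00000028616) encode proteins that carry, break down or rebuild lipid or let glycerol pass. All 10 passed the filter on low values, a mean of at least 2 normalized gene counts over the samples.

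White adipocytes keep triglyceride in a single large droplet. Perilipin 1 guards its surface, and hormone-sensitive lipase breaks the stored fat down when adrenergic signals release it. Fat cells differentiate under the transcription factors PPAR-gamma and C/EBP-alpha, and secrete adiponectin and leptin into the blood. The wall of the urethra is made of urothelium, smooth muscle and the striated sphincter, and lies next to pelvic connective tissue and fat.

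Female virgin Sprague–Dawley rats underwent crush of the pudendal nerve with vaginal distension (SVD), and all groups carried this injury. They then received into the aorta either saline, mesoangioblasts from another rat (MABs-allo, vessel-associated progenitor cells of muscle) or such cells overexpressing VEGF (MABs-allo-VEGF). Urethras were collected 3d or 7d after SVD, which gave 6 groups of 4 samples. Both cell products were prepared from a muscle biopsy of another rat, and only MABs-allo-VEGF carried the VEGF165 and truncated CD34 transgene. The paper tracked both by luciferase but also calls MABs-allo untransduced. It does not state whether both products came from 1 line. Among the 7d samples of MABs-allo-VEGF, the labels mark 2 (replicates 6 and 7) as having recovered. The values are reads of 3ʹ mRNA libraries divided by a size factor per sample, called normalized counts here, and are not corrected for gene length. Between 2170695 and 10166052 reads per sample fell on genes (median 5246798), and 1 read was worth 1.67 to 9.23 normalized counts. The fewest reads were found in the cell-treated urethras at 3d, with medians of 3452557 in MABs-allo and 3928423 in MABs-allo-VEGF.

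A set of 3 libraries stood apart by transcripts of milk proteins (Csn1s1, Csn2, Csn3, Lalba), which are made in mammary gland. The summed level of 7 mammary gland genes was 28966 normalized counts in saline 3d replicate 8, 43320 in saline 7d replicate 3 and 158238 in MABs-allo-VEGF 7d replicate 11, and ranged from 88.4 to 555 among the remaining 21 libraries. These same libraries were each among the 9 highest for Adipoq, and the comparisons of the members between groups that include one of them are also given without them. Saline 3d replicate 8 also had the lowest sum of smooth muscle genes (23412) and of epithelial genes (1121) of the 24 libraries. The other tissue markers of the urethra were detected in every library, with smooth muscle sums of 58449 to 319373 and epithelial sums of 1784 to 75904 outside that replicate. The defining gene of brown fat, Ucp1, had at most 3.38 normalized counts, which is 1 read. Replicates are separate urethras only as far as the labels number them, and where nothing more is known p-values measure the spread between these samples.

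Promoter sequences are shown for the members in which the site of the C/EBP factors, TTGCNNAA on either strand, was found. Control of the members by these factors was not tested. RefSeq promoters of the rat build GRCr8 matched 7 of the 10 members by symbol. Fabp4, Lipe and Aqp7 were not among them. The 250 bases before the transcript start are printed 5ʹ to 3ʹ on the gene's strand, and the capitals mark the match. The counts were made by the authors on another build, Rnor6.0, and the coordinates below serve for the sequences alone.
Plin1 (GRCr8 chr1:143086149-143086398, minus strand): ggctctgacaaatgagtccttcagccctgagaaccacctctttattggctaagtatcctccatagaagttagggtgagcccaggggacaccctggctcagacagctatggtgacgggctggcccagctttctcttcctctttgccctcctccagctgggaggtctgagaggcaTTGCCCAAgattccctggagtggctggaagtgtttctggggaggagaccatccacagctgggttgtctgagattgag
Lep (GRCr8 chr4:58626288-58626537, plus strand): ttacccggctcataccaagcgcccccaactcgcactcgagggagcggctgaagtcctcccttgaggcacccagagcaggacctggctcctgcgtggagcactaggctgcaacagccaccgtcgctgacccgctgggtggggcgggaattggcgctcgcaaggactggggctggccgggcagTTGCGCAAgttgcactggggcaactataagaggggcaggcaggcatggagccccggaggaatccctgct
Cidec (GRCr8 chr4:148137116-148137365, minus strand): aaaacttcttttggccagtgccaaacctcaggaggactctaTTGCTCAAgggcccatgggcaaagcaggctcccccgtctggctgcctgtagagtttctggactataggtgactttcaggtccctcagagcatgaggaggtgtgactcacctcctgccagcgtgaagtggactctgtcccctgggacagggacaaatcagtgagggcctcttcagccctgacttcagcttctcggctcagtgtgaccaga
Relative to the transcript start, the match began at position -77 in Plin1, -69 in Lep and -209 in Cidec. The match in Lep reads the same on both strands. The site was found in 3 of 7 member promoters and in 9.22% of 33469 rat promoters of this length. The half-site AGGTCA of nuclear receptors was present in Pck1 and Retn, and in 14.1% of all promoters. No member promoter held the response element of PPAR-gamma, a direct repeat of AGGTCA with any 1 base between, which was found in 0.0508% of all promoters, or the same repeat of the looser half-site AGGNCA, found in 0.367%. TATAAA (12.9% of promoters) and CACGTG (5.59%) were not found in them either.

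Adipoq, the gene of the insulin-sensitising hormone adiponectin, differed widely between urethras of the same group. At 3d it had 7.04, 51.6, 57.2 and 2113 normalized counts in saline, 0, 5.42, 32.8 and 73.9 in MABs-allo, and 0, 0, 8.91 and 16.7 in MABs-allo-VEGF. At 7d it had 318, 1845, 3612 and 3629 in saline, 86.1, 697, 1383 and 5569 in MABs-allo, and 2.85, 14.5, 18.9 and 419 in MABs-allo-VEGF. The high value at 3d belonged to saline replicate 8 and the high value of MABs-allo-VEGF at 7d to replicate 11, both rich in milk protein transcripts. The low value of MABs-allo at 7d was replicate 9.

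Lep encodes leptin, the hormone that reports fat stores to the brain. At 3d it had at most 2 reads in every urethra except saline replicate 8, where it reached 74.5 normalized counts. In saline at 7d it had 60.9, 174, 179 and 583 normalized counts, in MABs-allo 3.31, 28.4, 130 and 1457, and in MABs-allo-VEGF 0, 0, 3.63 and 9.31. The saline and MABs-allo-VEGF urethras did not overlap at 7d, while MABs-allo spanned both. Retn encodes resistin, a secreted protein of rodent white fat. It had 27.5, 28.6, 45.7 and 1043 normalized counts in saline at 3d, 10.8 to 38.3 in MABs-allo and 0 to 40.4 in MABs-allo-VEGF. At 7d it had 244, 683, 4217 and 4968 in saline, 33.1, 424, 2137 and 3054 in MABs-allo, and 7.26, 14.3, 18.9 and 230 in MABs-allo-VEGF. Saline 3d replicate 8 was again the only urethra of that day above the others, and every saline urethra at 7d exceeded every MABs-allo-VEGF one. Cfd encodes complement factor D (adipsin), the protease that starts the alternative complement pathway and a main secreted product of fat. Unlike Lep, it was read in every library. It had 1618, 1777, 2545 and 15651 normalized counts in saline at 3d, 170 to 1619 in MABs-allo and 443 to 3437 in MABs-allo-VEGF. At 7d it had 4762, 12010, 19826 and 25741 in saline, 1328, 6028, 7867 and 38658 in MABs-allo, and 516, 848, 1984 and 4438 in MABs-allo-VEGF. The lowest saline urethra of that day stood above the highest MABs-allo-VEGF one.

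Plin1 encodes the coat protein of the fat cell's lipid droplet. It had 3.52, 14.3, 41.3 and 1062 normalized counts in saline at 3d, 0, 10.9, 21.7 and 36.9 in MABs-allo, and 5.41, 10.1, 41.7 and 44.5 in MABs-allo-VEGF. The values at 7d were 271, 898, 2479 and 2484 in saline, 19.9, 561, 736 and 4511 in MABs-allo, and 3.15, 8.56, 10.9 and 217 in MABs-allo-VEGF. The order of the urethras was close to that of Adipoq, with replicate 9 lowest in MABs-allo and replicate 11 alone high in MABs-allo-VEGF. Cidec encodes a protein that fuses small droplets into a large one. It had 0, 3.52, 20.7 and 290 normalized counts in saline at 3d, and at most 46.2 in the cell-treated urethras of that day. The values at 7d were 74.4, 747, 1703 and 2273 in saline, 13.2, 443, 629 and 1067 in MABs-allo, and 2.85, 3.15, 3.63 and 96.2 in MABs-allo-VEGF. The last of these values, again replicate 11, stood within the saline range.

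Fabp4 encodes the fatty acid carrier of adipocytes, and is known also from macrophages and capillary endothelium. It was read in every library, from 384 to 22286 normalized counts. In saline it had 730, 893, 1316 and 4743 normalized counts at 3d and 2222, 18597, 20279 and 22077 at 7d. In MABs-allo it had 405 to 1587 at 3d and 983, 6183, 18363 and 22286 at 7d, and in MABs-allo-VEGF 384 to 1725 at 3d and 567, 1289, 2303 and 2942 at 7d. Replicate 1 stood alone as low among the saline urethras of 7d. Lipe encodes hormone-sensitive lipase, which is used also outside fat, in muscle and in steroid-making tissue. It did not share the pattern of the other members. In saline it had 1329, 4574, 6558 and 7017 normalized counts at 3d and 6902, 7150, 11031 and 11473 at 7d. In MABs-allo it had 914, 1514, 1960 and 1964 at 3d and 6788, 7484, 8841 and 26212 at 7d. In MABs-allo-VEGF it had 1332, 1984, 3167 and 4555 at 3d and 4624, 5126, 6960 and 7962 at 7d. Among the urethras of MABs-allo-VEGF at 7d, replicate 11, the highest in Adipoq, was the lowest in Lipe.

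Pck1 encodes the enzyme that supplies glycerol for fat made anew in adipocytes, and is better known from glucose production in liver and kidney. It had 3.44, 14.3, 17.6 and 619 normalized counts in saline at 3d, and at most 33.3 in the cell-treated urethras of that day. The values at 7d were 257, 395, 1730 and 5166 in saline, 26.5, 253, 300.5 and 1681 in MABs-allo, and 3.63, 8.56, 18.9 and 282 in MABs-allo-VEGF. Its highest urethra in MABs-allo was replicate 11 and not replicate 13, which led the other members there. Aqp7 encodes the channel through which glycerol leaves the fat cell. It had 0, 3.52, 3.57 and 39.2 normalized counts in saline at 3d, no read in MABs-allo, and 0, 0, 0 and 16.7 in MABs-allo-VEGF. At 7d it had 50.7, 70.3, 138 and 172 in saline, 19.9, 80.5, 83.4 and 249 in MABs-allo, and 3.15, 3.63, 5.70 and 6.21 in MABs-allo-VEGF. At 7d all 4 MABs-allo-VEGF urethras, replicate 11 included, were below all urethras of the other 2 treatments.

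**Figure D1:**
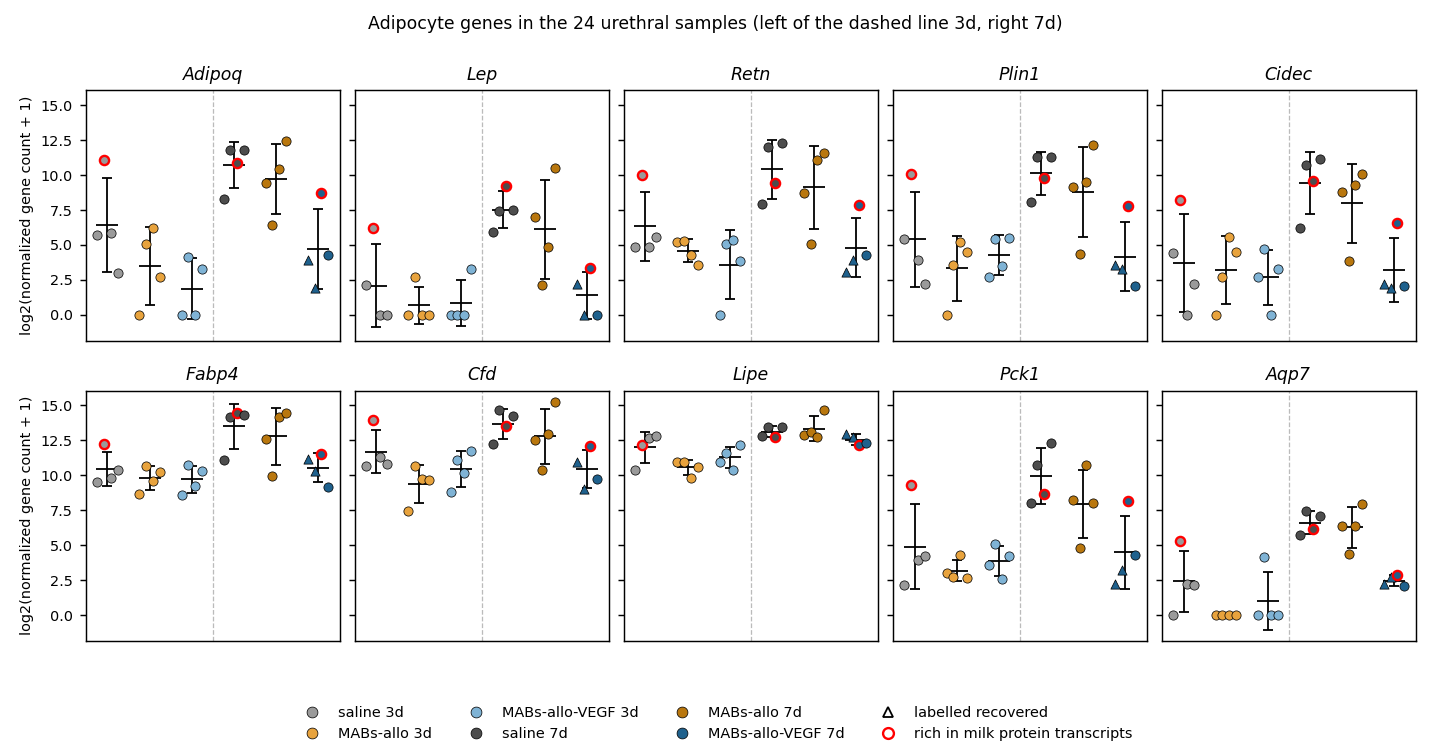
Level of each adipocyte gene as log2(normalized gene count + 1) in the 6 groups of 4 urethras, with the group mean and SD as bars. Triangles are the 2 recovered urethras and red rings the 3 libraries rich in milk protein transcripts, which include the highest point of saline 3d for Adipoq, at 2113 normalized counts, and of MABs-allo-VEGF 7d, at 419.

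A common set of libraries carried these values. The sum of the 7 members other than Fabp4, Cfd and Lipe, which had many reads in every library, ranged from 21.6 to 18839 normalized counts. It was at least 1260 in 9 libraries, namely all saline urethras at 7d, MABs-allo 7d replicates 7.2, 11 and 13, MABs-allo-VEGF 7d replicate 11 and saline 3d replicate 8, and at most 202 in the other 15. The same 9 libraries were the highest for Adipoq, where they had at least 318 normalized counts against at most 86.1 in the other 15, and for Lep, Retn, Plin1, Cidec, Cfd and Pck1, for Lep by as little as 9.31 against 8.91. They held 8 of the 9 highest for Fabp4 and for Aqp7, but 5 of the 9 highest for Lipe. The summed level of all 10 members was 0.0112% to 0.437% of all normalized counts of a library. Its group medians were 10152 in saline, 3183 in MABs-allo and 5198 in MABs-allo-VEGF at 3d, and 58054 in saline, 31012 in MABs-allo and 10553 in MABs-allo-VEGF at 7d.

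**Figure D2:**
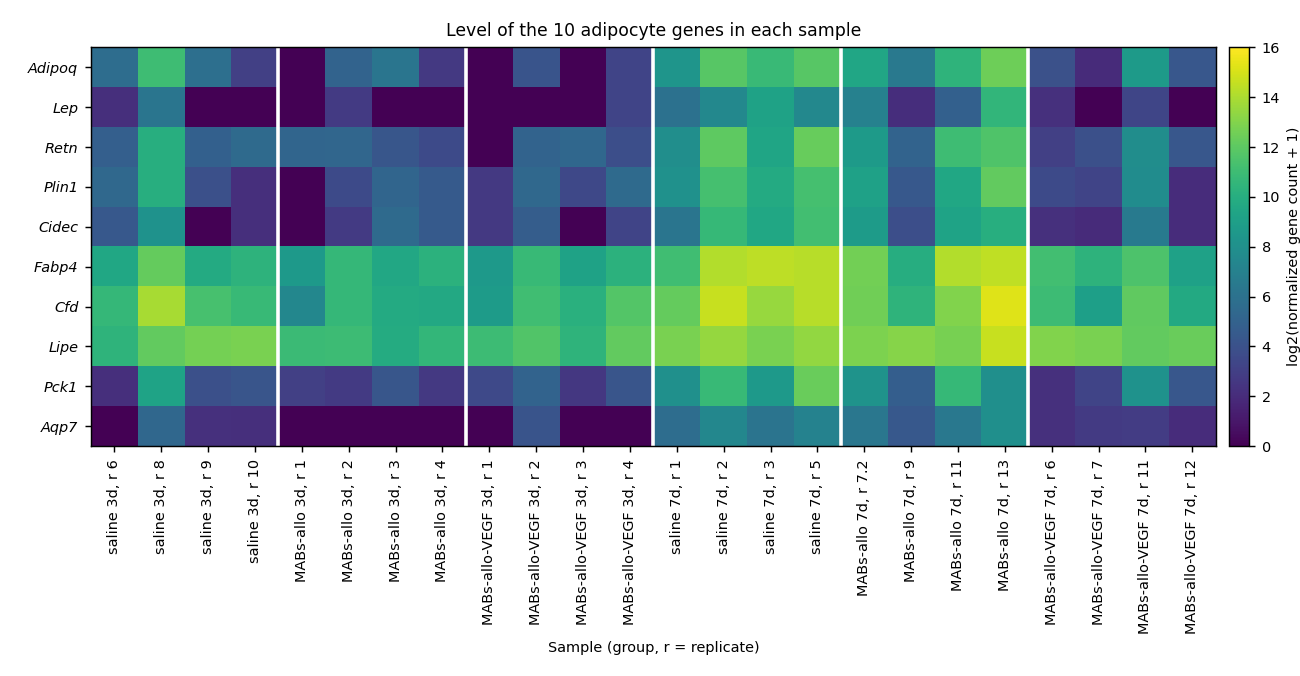
Level of the 10 genes as log2(normalized gene count + 1), coloured from 0 to 16, in each of the 24 samples, with white lines between groups. Bright columns for most genes are the 4 saline urethras of 7d, 3 of 4 MABs-allo urethras of 7d and saline 3d replicate 8, while the row of Lipe is bright throughout.

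Within groups, the members varied more than most genes. The SD of log2(normalized count + 1) within groups had a median of 2.20 over the 10 members, against 0.713 over all 16287 genes tested and 0.543 over the 12755 genes with a mean of at least 20 normalized counts. It was 2.61 for Adipoq, 2.59 for Cidec, 2.51 for Plin1, 2.26 for Retn, 2.25 for Lep and 2.15 for Pck1, which placed these genes at the 98.6 to 99.7 percentile of all genes tested. Fabp4 (1.36), Cfd (1.46) and Aqp7 (1.42) were at the 73.0 to 78.2 percentile, and Lipe (0.732) was at the 50.8 percentile. Without the 3 libraries rich in milk protein transcripts it was 1.28 for Aqp7 to 2.28 for Cidec, and 0.785 for Lipe. In MABs-allo at 7d the highest Adipoq value was 64.7-fold the lowest, and in saline at 7d it was 11.4-fold.

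Across the 24 samples, 8 of the other 9 members followed Adipoq closely. Pearson's r of the log2 values was 0.929 for Plin1, 0.911 for Cfd, 0.905 for Cidec, 0.887 for Retn, 0.877 for Fabp4, 0.875 for Lep, 0.870 for Pck1 and 0.852 for Aqp7, with Spearman's rho of 0.770 to 0.879 (adjusted permutation p of 1.5e-05 to 2.25e-05). Over these 9 relations the adjusted p by permutation was 1.12e-05 for each r of these genes, where 100000 permutations cannot give a raw p below 1e-05. Lipe had an r of 0.616 (adjusted permutation p = 0.00149) and a rho of 0.566 (adjusted permutation p = 0.00458). Without the 2 samples farthest from the median of Adipoq, MABs-allo 7d replicate 13 and saline 7d replicate 5, r was 0.810 to 0.909 for the former genes and 0.507 for Lipe. The urethras fall into high and low ones by day and treatment, so r is also given within days (n = 12) and within groups. Within 3d it was 0.618 to 0.831 for the other genes and 0.258 for Lipe, and within 7d 0.878 to 0.973 and 0.509. After the group means were subtracted it was 0.619 for Aqp7 to 0.919 for Plin1, and 0.108 for Lipe. Without the 3 libraries rich in milk protein transcripts r was 0.849 to 0.917 over the remaining 21 samples and 0.644 for Lipe, and after subtraction of the group means 0.504 to 0.866 and 0.186. The samples share a single sequencing library each, so the members of a sample also share its depth.

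**Figure D3:**
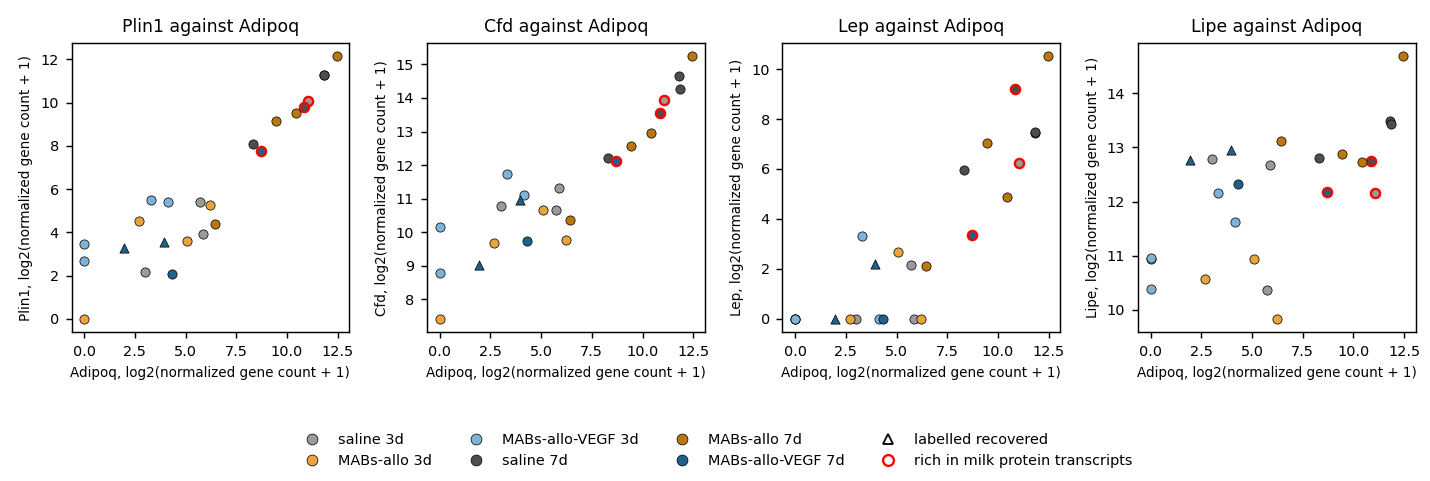
Plin1, Cfd, Lep and Lipe against Adipoq, each on the log2(normalized gene count + 1) scale, for all 24 samples, with colours for the groups, triangles for the recovered urethras and red rings for the libraries rich in milk protein transcripts. Plin1 (r = 0.929) and Cfd (0.911) rise with Adipoq throughout its range, while Lipe (0.616) is high in many urethras with little Adipoq.

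The members did not keep a fixed ratio to each other among the libraries with at least 20 Adipoq reads in which a ratio was formed. Per 100 reads of Adipoq there were 23.1 to 85.1 of Plin1, 37.0 to 154.5 of Retn and 2.05 to 31.6 of Lep. In saline at 7d, Lep was read 4.82 and 4.94 times per 100 Adipoq reads in replicates 2 and 5, against 19.1 in replicate 1 and 31.6 in replicate 3. Retn went the other way, with 117 and 137 in replicates 2 and 5 against 76.6 in replicate 1 and 37.0 in replicate 3. Counting error alone is given by the reads, which were 18 and 174 of Lep in replicates 1 and 3 and 70 and 57 in replicates 2 and 5.

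The 10 genes outside the list that followed the members best within groups were ranked among 12745 genes by the correlation with the mean of the members' standardised values after subtraction of the group means. They were Rbp4 (r = 0.905), Trarg1 (0.889), Gpd1 (0.884), Fth1 (0.878), Gm2a (0.857), Cygb (0.843), Fabp5 (0.840), Yipf3 (0.839), Sdf4 (0.830) and Rap1gds1 (0.824). Rbp4 encodes the carrier of retinol and is also made by fat, Trarg1 a regulator of the insulin-responsive glucose transporter in fat, and Gpd1 the enzyme that forms the glycerol backbone of triglyceride. Rbp4 ranged from 28.4 to 1112 normalized counts, Trarg1 from 50.4 to 1721 and Gpd1 from 5.41 to 3772. The nuclear receptor gene Pparg, by contrast, had 108 to 784 normalized counts at 3d and 112 to 1607 at 7d, with its lowest value of 7d in MABs-allo replicate 13, the urethra with the most Adipoq. Lpl, the lipase that releases fatty acids from blood lipoproteins, had 1140 to 7165 normalized counts at 3d and 1686 to 11620 at 7d.

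The first question of the design is how the samples of injured urethra differed between 3d and 7d. In MABs-allo all 10 members were lower at 3d than at 7d. A gene was called where limma, fitted across all genes, gave a difference of more than 1 on the log2 scale and its adjusted p was under 0.05. By this rule 6.05% of the 16287 genes tested were called lower at 3d. The difference on the log2(normalized count + 1) scale ran from -2.78 for Lipe to -6.27 for Aqp7, with a median of -4.78 over the members and 0.06 over all genes. Adipoq had 28.03 ± 33.8 normalized counts at 3d and 1934 ± 2481 at 7d (SD, n = 4 each), a log2 difference of -6.19 ± 1.64 (SE, adjusted p = 0.00628). Lipe had 1588 ± 496 and 12331 ± 9293, a difference of -2.78 ± 0.47 with the adjusted p of 0.000224. Adipoq, Lipe, Pck1 and Aqp7 did not overlap between the days, which was so for 9.33% of all genes in this direction. The other 6 members overlapped by the low urethra of 7d, replicate 9.

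For members with few reads at 3d the fitted difference depends on the added 1. Aqp7 had no read in the 4 MABs-allo urethras at 3d and was at least 5.30-fold lower than at 7d, against a floor of 3 reads per library. With Aqp7 at that bound the median of the members was -4.65. Lep had 1 read in all at 3d and 411 at 7d, a ratio of 173 per unit of depth (95% exact interval 30.9 to 6844, counting error only). Of these 411 reads 351 came from replicate 13, so the ratio mostly describes that urethra. No library of this comparison was rich in milk protein transcripts. Leaving out 1 urethra at a time, 7 to 10 members were called, with 7 when MABs-allo 7d replicate 11 or 13 was left out. In bulk tissue, fewer fat cells and less RNA per fat cell cannot be told apart. Fat of the urethra and adjacent fat taken with it cannot be told apart either. The amount of adjacent fat per sample is not given, and its part in the differences between days and treatments was not tested.

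In saline, 4 of the 10 members were called lower at 3d, against 0.602% of all genes. Aqp7 differed by -4.18 ± 0.999 on the log2 scale (SE, adjusted p = 0.0238 by limma), Lep by -5.42 ± 1.47 (0.0398), Pck1 by -5.04 ± 1.37 (0.0398) and Fabp4 by -3.04 ± 0.85 (0.0452). Fabp4 had 1921 ± 1898 normalized counts at 3d and 15794 ± 9159 at 7d. The others were Cidec (-5.72, adjusted p = 0.051), Plin1 (-4.72, 0.0965), Retn (-4.09, 0.108), Adipoq (-4.29, 0.146), Lipe (-1.12, 0.188) and Cfd (-2.0, 0.235). Saline 3d replicate 8 overlapped the urethras of 7d for 8 members, replicate 10 did so for Lipe, and Aqp7 did not overlap, where 4.92% of all genes were lower without overlap. The smooth muscle genes Acta2 (-1.94) and Smtn (-1.29) and the epithelial genes Upk2 (-6.0) and Krt7 (-3.57) were also called lower at 3d in saline, and Kdr of endothelium (1.25) higher, and their part in the values of the members was not tested. Without saline 3d replicate 8, 8 members were called, with Adipoq at -5.84 and Plin1 at -6.27, and without the 3 libraries rich in milk protein transcripts 8 were called as well, Adipoq at -5.79. The 4 calls were lost when saline replicate 6, 9 or 10 of 3d or replicate 2, 3 or 5 of 7d was left out, where 0 were called. Over all genes, 22 to 1281 were called in either direction without 1 replicate, against 520 with all of them.

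In MABs-allo-VEGF no member was called between the days, while 15.3% of all genes were. The median log2 difference was -0.72. Lipe came nearest, with 2760 ± 1418 normalized counts at 3d and 6168 ± 1562 at 7d (-1.28 ± 0.47, adjusted p = 0.0556 by limma). Its values did not overlap between the days, which was so for 8.01% of all genes in this direction. Adipoq differed by -2.87 (95% confidence interval -6.26 to 0.52), Plin1 by 0.11 (-3.16 to 3.37) and Cfd by -0.0032 (-1.89 to 1.89). By the unadjusted p, 1 member was under 0.05, DESeq2 called Adipoq and edgeR called 0. Without replicate 11 of 7d and the other libraries rich in milk protein transcripts the median was -0.05, with 5 members higher and 5 lower. Whether this day difference itself differed from that in MABs-allo was tested by an interaction term, and no member was called, with 0.00614% of all genes called. The term, coded as the effect of VEGF overexpression over MABs-allo alone at 7d less the same effect at 3d, was -5.57 ± 2.24 for Plin1 (SE, adjusted p = 0.941 by limma), -4.89 ± 2.08 for Lep (0.941) and -4.85 ± 1.41 for Aqp7 (0.941). The median over the members was -3.77, and -4.81 without the libraries rich in milk protein transcripts. DESeq2 and edgeR called 0, and 6 members had an unadjusted p under 0.05, against 5.10% of all genes.

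**Figure D4:**
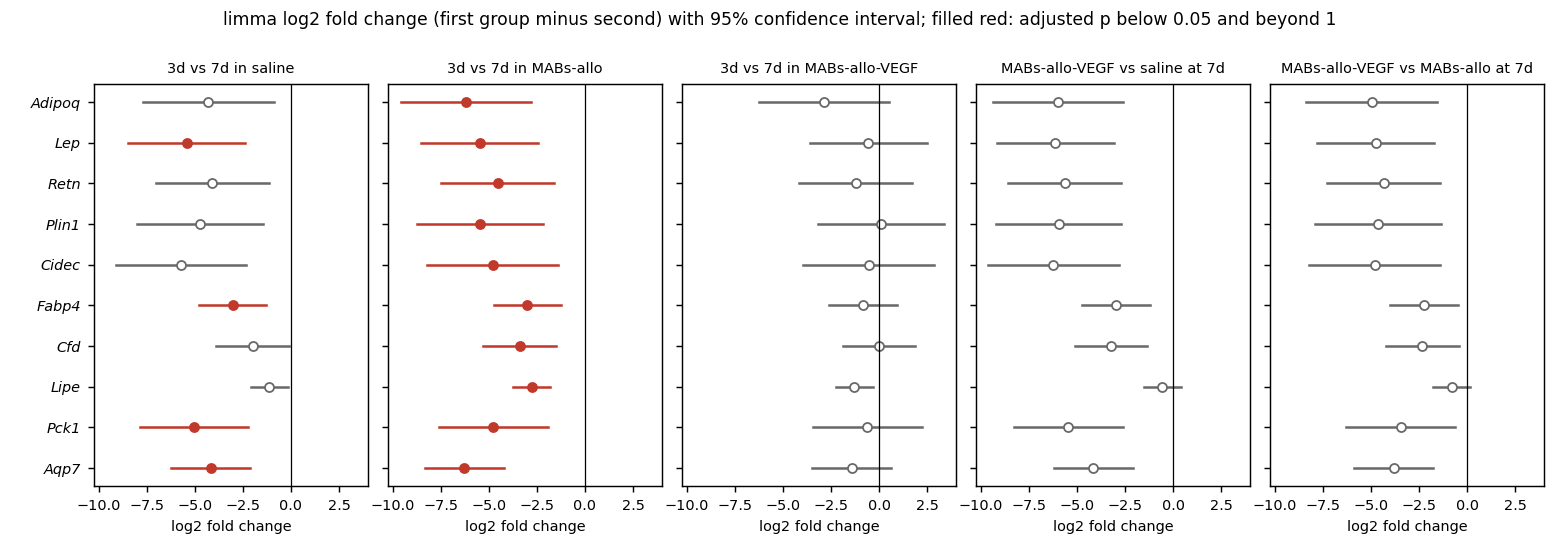
Difference in log2(normalized gene count + 1) of each member with its 95% confidence interval from limma, in 5 comparisons. Filled red symbols are called, which holds for all 10 members between the days in MABs-allo and for 4 in saline, while none is filled in the comparisons at 7d.

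The next question is whether the cell products differed from saline and from each other. At 7d all 10 members were lower in MABs-allo-VEGF than in saline, but none was called, and neither was any other gene (0%). The median difference over the members was -5.54, against 0.01 over all genes. Adipoq had 114 ± 204 normalized counts in MABs-allo-VEGF and 2351 ± 1593 in saline (-5.97 ± 1.64, adjusted p = 0.478 by limma), and Aqp7 had 4.67 ± 1.51 and 108 ± 56.8 (-4.14 ± 0.999, adjusted p = 0.383). The adjusted p of the 10 members ran from 0.383 to 0.890. The unadjusted p was under 0.05 for 9 of them and for 6.34% of all genes. Lep, Retn, Plin1, Cfd and Aqp7 did not overlap between the groups, which was so for 3.12% of all genes in this direction. Lep had 4 reads in all in MABs-allo-VEGF and 319 in saline, a ratio of 76.8 per unit of depth (95% exact interval 29.7 to 284, counting error only). Of these 319 reads 174 came from saline replicate 3, a library rich in milk protein transcripts. Without the 3 libraries rich in milk protein transcripts the median was -6.61 and the lowest adjusted p 0.0905, for Pck1, and none was called. With sample quality weights 9 members were called, all but Lipe, with DESeq2 on the recovered reads Retn, Aqp7 and Fabp4 were called, and with edgeR 0. No setting of the processing called more than 147 of all genes in this comparison.

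Against MABs-allo at 7d, the members were also lower in MABs-allo-VEGF, with a median of -4.07 and none called of 16287 genes (0%). The differences ran from -0.79 for Lipe (95% confidence interval -1.76 to 0.17) to -4.96 for Adipoq (-8.35 to -1.57), with an adjusted p of 1.0 for each and an unadjusted p under 0.05 for 9 of 10 members and 2.78% of all genes. DESeq2 and edgeR on all samples called 0 of the members. DESeq2 on 22 samples, without saline replicate 6 and MABs-allo-VEGF replicate 4 of 3d, called Aqp7 (-3.42, adjusted p = 0.032). No setting of the processing called more than 5 of all genes. The study, which tested with DESeq2, had reported Lep and Aqp7 as lower in this comparison from these same data. The share of the members is therefore no independent test. Without the libraries rich in milk protein transcripts the median was -5.01 and none was called. Aqp7 was the one member without overlap, and 1.09% of genes were lower without overlap. Aqp7 had 6 reads in all in MABs-allo-VEGF and 142 in MABs-allo, a ratio of 20.4 per unit of depth (95% exact interval 9.16 to 56.6). The comparisons at 7d share the MABs-allo-VEGF urethras, so they are not independent of each other. Between MABs-allo and saline at 7d no member was called, with a median of -1.16, 0 calls by limma among all genes (0%), 0 members with an unadjusted p under 0.05, and 0 calls of members by DESeq2 and edgeR. Without saline replicate 3, rich in milk protein transcripts, and the other such libraries the median was -0.95. Without MABs-allo replicate 9, the urethra of that group with the least Adipoq, the median was 0.06, with 6 members higher and 4 lower, in place of 1 higher and 9 lower. The interval for Adipoq was -4.40 to 2.38 and for Lipe -0.74 to 1.19.

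At 3d, Lipe was lower in MABs-allo than in saline, with 1588 ± 496 against 4870 ± 2587 normalized counts (-1.43 ± 0.47, adjusted p = 0.0419 by limma). It was the one member called, where 2.86% of all genes were called lower. Lipe was not called without saline replicate 8, 9 or 10 or without MABs-allo replicate 1, 3 or 4. Cfd (-2.29, adjusted p = 0.0877) and Aqp7 (-2.42, 0.0984) were not called. Without the libraries rich in milk protein transcripts no member was called, and the median over the members was -0.51 in place of -1.73. DESeq2 called 5 members, Adipoq, Plin1, Lipe, Pck1 and Cfd, in this comparison. Depending on the processing, 5 to 2954 of all genes were called in it, so these 5 members are not read as standing out. Between MABs-allo-VEGF and saline no member was called (0.0307% of all genes called, median of the members -1.17), with Adipoq lowest at -4.55 ± 1.64 (adjusted p = 0.152). By the unadjusted p 1 member was under 0.05, DESeq2 called Adipoq and edgeR called 0. Without the libraries rich in milk protein transcripts the median was -0.30. Between the 2 cell products no member was called (0.00614% of all genes), 0 had an unadjusted p under 0.05, DESeq2 and edgeR called 0, and the median was 0.43. Of the macrophage genes 4 of 7 were called lower in MABs-allo than in saline at 3d, with summed levels of 1115 to 12233 against 11315 to 22236 normalized counts. The endothelial genes Tie1 (-1.33) and Esam (-1.08) were called lower too, and Tnnt3 (1.55) and Mylpf (1.42) of skeletal muscle and the epithelial Krt14 (4.15) higher. None of these markers was called without the libraries rich in milk protein transcripts, which takes saline replicate 8 from this comparison. The differences were then -0.96 for Tie1, -0.97 for Esam, 1.74 for Tnnt3, 1.51 for Mylpf and 2.60 for Krt14. The macrophage gene C1qb was at -2.12, in place of -2.26. The part of these markers in the values of the members was not tested. Whether the treatment effects differed between the days was tested against saline too, and no member and no other gene (0%) was called for either cell product, with Lipe at 1.66 ± 0.66 (adjusted p = 0.282 by limma) for MABs-allo and Lep at -4.86 ± 2.08 (0.563) for MABs-allo-VEGF. The medians over the members were 0.59 and -2.82, and without the libraries rich in milk protein transcripts -0.55 and -4.86, with none called.

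The 2 recovered urethras were among the lowest of 7d for Adipoq, Retn, Plin1 and Pck1, but not for every member. Replicates 6 and 7 had 14.5 and 2.85 normalized counts of Adipoq, 7.26 and 14.3 of Retn, 10.9 and 8.56 of Plin1, and 3.63 and 8.56 of Pck1. The sum of the 7 members other than Fabp4, Cfd and Lipe was 47.2 and 42.8, against 66.2 in the non-recovered replicate 12 and 1260 in the non-recovered replicate 11 of the same treatment. Lipe had 7962 and 6960, the highest 2 values of MABs-allo-VEGF. Fabp4 had 2303 in replicate 6, above saline 7d replicate 1 at 2222. The lowest Fabp4 value of MABs-allo-VEGF at 7d, 567, belonged to the non-recovered replicate 12, and the lowest Cfd value, 516, to the recovered replicate 7. Against the other 10 urethras of 7d, the members were lower by a median of -4.91 on the log2 scale, and none of them and no other gene (0% of 16111) was called. The unadjusted p was under 0.05 for 8 members and 4.98% of all genes. The study had reported Adipoq, Retn, Plin1, Cidec, Pck1 and Aqp7 as lower in recovered urethras from these same data. The members were listed with earlier results known, so their share is no independent test. Adipoq differed by -6.51 ± 1.58 (adjusted p = 0.686 by limma), Retn by -5.54 ± 1.69 (0.857) and Pck1 by -5.66 ± 1.52 (0.736), which were the 3 members without overlap, where 1.11% of genes were lower without overlap. Recovery was labelled only in MABs-allo-VEGF, and in this comparison recovery and treatment cannot be told apart. DESeq2 called Adipoq, Retn, Plin1, Cidec and Pck1, and edgeR called 0. No setting of the processing called more than 9 of all genes in this comparison. Without MABs-allo-VEGF replicate 11 and saline replicate 3 the median was -4.82 and none was called by limma.

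Within MABs-allo-VEGF at 7d, 2 recovered urethras were set against 2 others, and no member was called (0% of all genes). The median difference was -1.22, with Adipoq at -3.56 (95% confidence interval -7.32 to 0.19), Pck1 at -3.50 (-7.22 to 0.22) and Lipe at 0.61 (-0.49 to 1.71). Adipoq, Retn and Pck1 were lower and Lipe was higher without overlap, where 32.6% of all genes did not overlap in a comparison of this size. Without replicate 11, rich in milk protein transcripts, 1 urethra remained on the other side, assumed to vary like the other groups. The median was then 0.34, with 7 members higher and 3 lower in the recovered urethras, Plin1 at 1.36 and Adipoq at -1.37, and the adjusted p was 1.0 for each.

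Other genes of the fat cell were counted beside the share of all genes called. At 3d against 7d, 6.05% of all genes were called lower and 17.0% higher in MABs-allo, 0.602% and 2.59% in saline, and 2.24% and 13.1% in MABs-allo-VEGF. Of 19 tested genes of lipid uptake and fat synthesis, 6 were called lower and 2 higher at 3d than at 7d in MABs-allo. Thrsp, a regulator of fat synthesis, differed by -3.98 ± 1.41 (adjusted p = 0.0349 by limma), Gpd1 by -3.97 ± 0.95 (0.00317), and Angptl4, an inhibitor of lipoprotein lipase, by -2.85 ± 0.81 (0.00991). In saline 4 of these genes were called lower (Gpd1 -3.83, Dgat2 -2.12, Lpl -1.74 and Me1 -1.41), and in MABs-allo-VEGF 3 lower and 2 higher, led by Lpin1 at 2.72. Without the libraries rich in milk protein transcripts 6 were called lower and 1 higher in saline and 2 lower and 2 higher in MABs-allo-VEGF, where Lpin1 was at 2.59 and not called (adjusted p = 0.0699 by limma). Of the other adipokine genes reported here, Sfrp5 (-4.18) and Rbp4 (-2.92) were called lower at 3d in MABs-allo, and 0 in saline or MABs-allo-VEGF.

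Of 11 tested genes of the lipid droplet and lipolysis, Mgll, the lipase of monoglycerides, was higher at 3d than at 7d by 3.80 ± 0.69 in MABs-allo (adjusted p = 0.000404 by limma) and by 3.64 in MABs-allo-VEGF. Pde3b, through which insulin curbs lipolysis, was higher by 2.38 ± 0.38 and by 2.26, and no other gene of this list was called in these groups. In saline Plin5 was the one gene called in it, at -2.30, while Mgll was at 2.39 and not called (adjusted p = 0.0522 by limma). Without the libraries rich in milk protein transcripts Mgll (3.16) was called higher at 3d in saline, and Plin5 (-2.83) and G0s2 (-2.39) lower. Of 12 adipogenic transcription factors and cofactors, Cebpd (-2.24) and Cebpa (-1.53) were called lower at 3d in MABs-allo, and Klf15 (-1.76), Srebf1 (-1.37) and Cebpb (-1.12) in MABs-allo-VEGF, while Ebf1 (1.15) was called higher in saline. Ebf1 in saline (1.01) and Srebf1 in MABs-allo-VEGF (-1.05) were not called without the libraries rich in milk protein transcripts. Of 9 tested receptors and partners of the member adipokines, the adiponectin receptor gene Adipor2 was higher at 3d by 3.25 in MABs-allo and by 3.08 in MABs-allo-VEGF. Irs1 (3.49) and C3ar1 (2.89) were among the 4 called higher in MABs-allo, and C3ar1 (4.87) among the 2 in MABs-allo-VEGF.

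Of 6 tested genes of brown and beige fat, Cox8b was called in saline (-2.01) and Tbx1 in MABs-allo-VEGF (-1.27), both lower at 3d, and 0 in MABs-allo. Of 7 tested genes of preadipocytes and fat stroma, Icam1 was lower (-1.66) and Cd34 higher (5.74) at 3d in MABs-allo, and Cd34 was higher in MABs-allo-VEGF (4.52). MABs-allo-VEGF carried a truncated CD34 transgene, and whether its reads fell on Cd34 was not tested. At 3d, 7 of the 73 tested genes of these 7 lists were called higher and 4 lower in MABs-allo than in saline, where 9.4% of all genes were higher and 2.86% lower. The higher ones were Cd34 (3.31), Acaca (3.13), Scd (2.58), Mgll (2.53), Adipor2 (2.44), Insr (1.91) and Pde3b (1.44), and the lower ones Sfrp5 (-3.73), Rbp4 (-2.33), Dpp4 (-1.86) and Rarres2 (-1.27). Without the libraries rich in milk protein transcripts, of which saline 3d replicate 8 is in this comparison, Scd (2.88) was the one gene of these lists still called. At 7d no gene of these 7 lists was called between treatments.

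Markers of other tissues moved with the days as well. In MABs-allo at 3d against 7d, Acta2 was lower by 1.94 on the log2 scale and 3 of 7 smooth muscle genes were called lower. Of 9 epithelial genes 3 were called lower and 1 higher there, led by Krt14 (4.29) and Upk2 (-3.99), and 3 of 7 macrophage genes were called lower, led by C1qb (-2.61). Skeletal muscle, mammary gland and lymphoid lists had 0 calls, and endothelium 1. The summed level of macrophage genes, which include cells that use Fabp4, was 1115 to 12233 in MABs-allo at 3d and 7513 to 26701 at 7d. In MABs-allo-VEGF, Acta2 (-1.40) was the one marker called between the days. Without the libraries rich in milk protein transcripts, 4 of 7 smooth muscle genes were called lower at 3d there, among them Cnn1 (-1.65) and Acta2 (-1.60). The epithelial gene Krt7 (-2.49) was then called lower as well. The part of these other tissues in the values of the members was not tested.

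**Figure D5:**
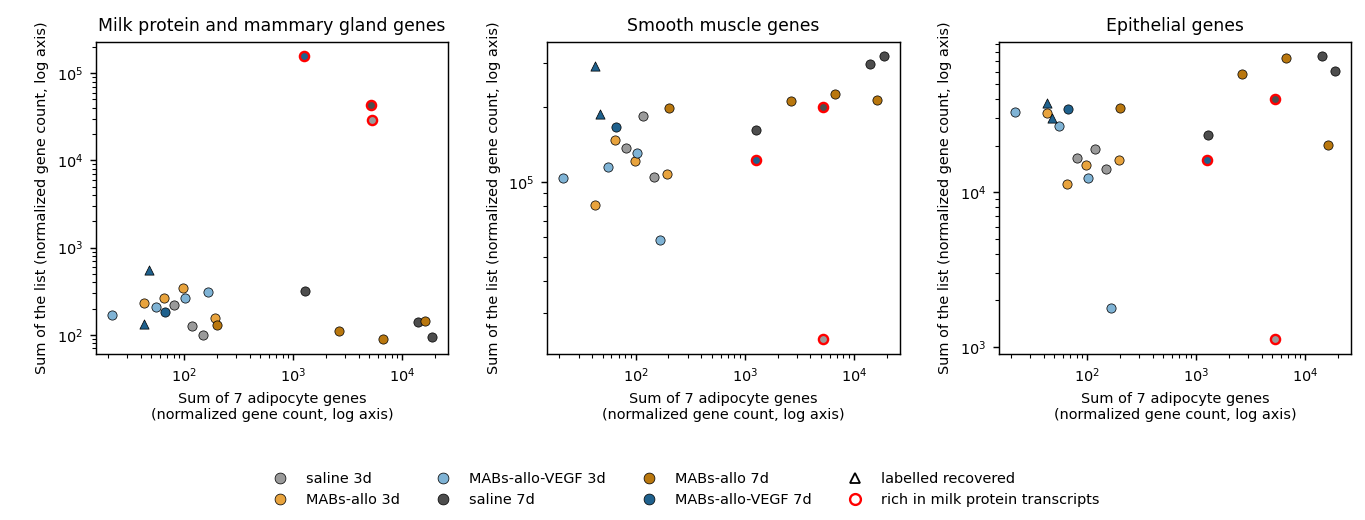
Summed level of 7 members (without Fabp4, Cfd and Lipe) against the sums of mammary gland, smooth muscle and epithelial genes in each of the 24 samples, in normalized gene counts on log axes. Red rings mark the 3 libraries with a mammary gland sum of at least 28966, which are also among the 9 with a member sum of at least 1260, while the other 6 of these 9 have mammary gland sums within the range of 88.4 to 555.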

How the data were processed

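Urethral RNA of 24 rats was sequenced by the authors as QuantSeq 3ʹ libraries. Reads were trimmed (fastq-mcf 1.05), mapped to Rnor6.0 (HISAT2, only reads with a single position) and counted per gene (HT-seq Count). The deposited signal is the count divided by the DESeq2 size factor of the sample, a normalized gene count. All values (100%) were whole multiples of 1 read within 0.01, so the reads were recovered. Groups, days, replicates and recovery came from the labels.

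The main test was limma 3.58.1 (R 4.3.3) on log2(normalized gene count + 1), two-sided, with Benjamini-Hochberg adjustment over 16287 genes with a mean of at least 2. The 6 groups shared 1 fit, and recovery was tested in the 12 samples of 7d (16111 genes). edgeR 4.0.16 and DESeq2 1.42.0 with ashr 2.2.63 were alternatives. A library's rank in milk protein transcripts was used to leave it out only after the values were seen. Correlations used 100000 permutations. Scripts were tested on simulated data.

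The members, the 7 lists of fat genes, the 7 lists of tissue markers and the tests were chosen with earlier results of these data known. Named genes are the members, up to 3 called genes per list and comparison, Ucp1, Pparg and Lpl, and the 10 genes most like the members. Mammary gland genes and Cd34 were named after their values were seen. Genes that repeat a symbol were kept apart by identifier. Depth was taken as reads on genes per library, and intervals of read ratios cover counting error only. A gene of the adipokine list is not reported here.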

Additional observations from a re-analysis of the deposited data

Results flagged for a closer look

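Of 59 sets of 4 urethras of 1 group and 1 member, 6 held a value whose gap to the nearest other value, divided by the range of the log2 values, was above the 95% critical value of Dixon's test. Chance flags about 1 in 20 such sets only where values are normally distributed. A set with reads in 1 urethra alone is always flagged, and the sets share libraries. The 6 of 59 are therefore not compared with that rate. Retn had 1043 normalized counts in saline 3d replicate 8, against 27.5 to 45.7 in the others of its group. Cidec had 96.2 in MABs-allo-VEGF 7d replicate 11, against 2.85 to 3.63. Both libraries are rich in milk protein transcripts. Fabp4 had 2222 in saline 7d replicate 1, against 18597 to 22077, and this urethra also had the lowest Adipoq of its group, 318. A further 3 values rest on 1 or 2 reads, with 0 in the rest of the group. They are Lep in MABs-allo 3d replicate 2 (5.47 normalized counts), Lep in MABs-allo-VEGF 3d replicate 4 (8.91) and Aqp7 in MABs-allo-VEGF 3d replicate 2 (16.7). No effect of a treatment was called as different between the days for any member.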

How the results depend on the processing

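All 10 members were called lower at 3d than at 7d in MABs-allo under each of the 12 alternatives that kept all urethras of this comparison, and 7 to 10 without 1 replicate. The other calls moved. In saline between the days, where 4 members were called, the count was 0 with 22 samples (leaving out replicate 6 of saline and replicate 4 of MABs-allo-VEGF at 3d, as plots of the study did) or only the groups compared, 1 with DESeq2 on those 22 samples, 2 with DESeq2 on all samples or with no filter on low values, 8 without the 3 libraries rich in milk protein transcripts, 9 with sample quality weights, and 0 to 8 without 1 replicate. In MABs-allo against saline at 3d, where 1 was called, it was 0 with no filter, only the groups compared or without those 3 libraries, 2 with the 22 samples or the same total per sample, 5 with DESeq2, 7 with DESeq2 on the 22 samples, and 0 to 2 without 1 replicate. In MABs-allo-VEGF between the days, where 0 were called, it was 1 with the 22 samples, DESeq2 in either form, only the groups compared or the same total, 2 with sample quality weights, and 0 to 1 without 1 replicate. The remaining comparisons had 0 calls. Sample quality weights gave 9 in MABs-allo-VEGF against saline at 7d, 1 at 3d and 2 for the change of this effect between the days. DESeq2 gave 3 in MABs-allo-VEGF against saline at 7d in either form, 1 at 3d, or 2 on the 22 samples, and 5 in recovered against other urethras. On the 22 samples limma gave 1 in MABs-allo-VEGF against saline at 3d and 1 for the change of the MABs-allo effect between the days, and DESeq2 gave 1 for that change and 1 in MABs-allo-VEGF against MABs-allo at 7d. Apart from fits without 1 replicate, the counts over all genes moved too. There were 0 to 1852 in saline, 3175 to 4033 in MABs-allo and 2150 to 3380 in MABs-allo-VEGF between the days. Against saline at 3d there were 5 to 2954 for MABs-allo and 0 to 2214 for MABs-allo-VEGF. At 7d MABs-allo-VEGF against saline had 0 to 147, and recovered against other urethras 0 to 9. The changes of the effect against saline between the days had 0 to 644 for MABs-allo and 0 to 675 for MABs-allo-VEGF. The cause of these differences was not tested. Lipe against Adipoq lost its call after subtraction of group means (r = 0.108), within 3d (0.258) and within 7d (0.509), while the other 8 members kept theirs. In recovered against other urethras, Lipe turned from -0.17 to 0.0087 on the log2 scale without MABs-allo 7d replicate 13 and ranged down to -0.27 without 1 replicate, and was not called. Medians of the summed level moved by less than 1 SD when taken as a share of the total.

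MABs-allo and MABs-allo-VEGF at 3d share the numbers 1 to 4. With the replicate block 0 members were called between them, as without it. Same-numbered samples correlated by 0.222, 0.151, 0.073 and 0.254. The samples numbered 1, 2 and 4 correlated best with their own number, and those numbered 3 did not. The labels do not say that the numbers pair the samples, and they were not taken to do so. Whether the numbers mark a shared block is not known. The fit with DESeq2 on the 22 samples, the fit without the 3 libraries and the sum of 7 members were added after the data were seen. Depth limits the 3d values most, where 1 read was worth up to 9.23 normalized counts.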

Other observations

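Replicate 3 of saline 7d and replicate 11 of MABs-allo-VEGF 7d, both rich in milk protein transcripts, had the highest levels of a further pair of genes. Thrsp, a regulator of fat synthesis, had 12981 and 6082 normalized counts in these libraries and at most 2270 in the others. G0s2, an inhibitor of the main triglyceride lipase, had 9187 and 4981 and at most 1887 in the others. Saline 3d replicate 8, also rich in milk protein transcripts, had 1697 of Thrsp and 1007 of G0s2, within the range of the other libraries. Adrb3, the adrenergic receptor of fat cells, had 99.6 and 72.3 in saline 7d replicates 2 and 5, 46.5 and 25.0 in MABs-allo 7d replicates 7.2 and 11, 35.3 in saline 3d replicate 8 and at most 6.21 elsewhere. MABs-allo 7d replicate 13, the urethra with the most Adipoq, had 4.15 of it. These genes were picked after their values were seen.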
